A study of Homo sapiens with 6 samples.

Results

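The nuclear receptor family and its coregulators were followed in AC16 cells given a fatty acid. Members were taken by gene name: 46 receptors and coregulators were listed, and 45 of them had a row among the 29638 gene rows of the tables. Expression of the remaining one, ESRRB, was not analysed here. The 45 comprised 37 receptors and 8 coregulators, the latter being the PGC-1 coactivators PPARGC1A, PPARGC1B and PPRC1, the p160 coactivators NCOA1, NCOA2 and NCOA3, the corepressor scaffold NCOR1 and the ligand-dependent corepressor NRIP1.

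Nuclear receptors are transcription factors with a zinc finger DNA-binding domain and a ligand-binding domain, many of which switch genes on or off when a small lipophilic molecule binds. Receptors for fatty acids (PPAR), oxysterols (LXR), retinoic acid (RAR), thyroid hormone (TR) and vitamin D (VDR) pair with an RXR partner, steroid receptors act mainly as homodimers, and orphan receptors such as the COUP-TFs have no established physiological ligand. Bound receptors recruit coactivators or corepressors, and in heart muscle the PPARs, the oestrogen-related receptors and PGC-1 coactivators are known for setting the expression of fatty acid oxidation and mitochondrial genes.

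AC16 is a human line made by fusing ventricular cardiomyocytes with SV40-transformed fibroblasts, and the labels call it wild type. Control cells (3 libraries) received the vehicle ethanol. The other 3 libraries are labelled PA; the treatment label spells this as Palmitelaidic Acid, a trans-monounsaturated fatty acid, while the series title speaks of palmitic acid, which is saturated, so the agent is called PA here. The sources used here give neither dose nor duration, and the labels do not state whether the libraries of a group are separate cultures, so p-values describe the spread between libraries, which may be technical. Values are RPKM, reads scaled to transcript length and library total, so levels can be compared between genes. Sums per library ran from 733025 to 881369 RPKM, and the read depth is unknown. Of the 12 cardiomyocyte markers with a row, 11 averaged under 1 RPKM, among them TNNT2, MYH6, MYH7 and RYR2. Of the 11 fibroblast markers, 2 averaged under 1 RPKM. The fibroblast markers VIM, THY1 and COL1A1 were abundant, at a mean of 2198, 278 and 219 RPKM over all libraries. Of the cardiomyocyte markers TNNI3 reached the level for testing and rose from 0.913 ± 0.418 to 3.30 ± 0.695 RPKM (limma adjusted p = 0.0288). TNNT2, MYH6 and MYH7, which define the labelled cell type, were at or near 0, with at most 0.15 RPKM in any library. The leukocyte marker PTPRC and the endothelial markers VWF and CDH5 were at or near 0, with at most 0.18 RPKM in any library. Other markers of both lists were present. The leukocyte list as a whole summed to 43.4 to 54.7 RPKM in control and 65.6 to 76.3 RPKM in PA. Its 2 tested markers were higher in every PA library than in every control. The endothelial list summed to 6.29 to 6.87 RPKM in control and 9.2 to 11.53 RPKM in PA. Of the 9 tested fibroblast markers 2 passed the limma threshold, both lower, COL3A1 and FAP. Of all genes tested, 4.81% passed in either direction. Values were negative in 8 of the 9 and positive in 1, with a median difference of -0.39 on the log2(RPKM + 1) scale. In 4 of the 9 every PA library was below every control, against 15.9% of all genes tested. The summed level of the fibroblast list, most of it VIM, ran from 2683 to 3189 RPKM in control and from 2471 to 2567 RPKM in PA. The part of this list in the receptor values was not tested. The epithelial list summed to 272 to 342 RPKM in control and to 323 to 349 RPKM in PA. Smooth muscle markers rose in 2 of 3 tested members (ACTA2 and TAGLN), epithelial markers in 1 of 3 (KRT8), endothelial markers in 1 of 1 (TIE1) and leukocyte markers in 1 of 2 (CD14), and their part was likewise not tested. These marker calls held in 0 to 5 of the 6 fits that left out 1 library.

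Windows around annotated transcription starts are shown for 3 members that the values below turn on: NR2F2, the only member past the test, NR2F1, its paralog with values in the other direction, and RARB, whose promoter is known for a retinoic acid response element. Each window runs from 250 bases before the start to 50 bases from it, 300 bases in all, on the plus strand of RefSeq's GRCh38.p14. A single capital marks the start base, and a run of capitals marks a motif match.
NR2F2, first listed start, chr15:96332315-96332614: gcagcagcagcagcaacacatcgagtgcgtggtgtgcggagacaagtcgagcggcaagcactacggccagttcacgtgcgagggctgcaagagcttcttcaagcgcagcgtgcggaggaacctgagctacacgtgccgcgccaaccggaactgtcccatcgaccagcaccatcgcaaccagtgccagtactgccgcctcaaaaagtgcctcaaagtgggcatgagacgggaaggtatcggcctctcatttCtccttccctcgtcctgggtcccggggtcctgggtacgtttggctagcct
NR2F2, second listed start, chr15:96333515-96333814: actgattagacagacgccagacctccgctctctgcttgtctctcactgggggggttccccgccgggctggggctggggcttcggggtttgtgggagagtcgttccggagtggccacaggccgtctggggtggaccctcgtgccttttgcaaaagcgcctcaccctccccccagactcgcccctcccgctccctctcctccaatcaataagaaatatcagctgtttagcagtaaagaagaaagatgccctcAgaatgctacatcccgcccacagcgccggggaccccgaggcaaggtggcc
NR2F1, first listed start, chr5:93582972-93583271: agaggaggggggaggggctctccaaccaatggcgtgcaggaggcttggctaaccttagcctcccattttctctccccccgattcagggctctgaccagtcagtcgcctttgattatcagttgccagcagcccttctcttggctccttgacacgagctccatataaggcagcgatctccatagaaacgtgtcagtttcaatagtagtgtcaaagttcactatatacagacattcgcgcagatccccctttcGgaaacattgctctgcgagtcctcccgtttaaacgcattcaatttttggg
RARB, the third listed start, chr3:25428013-25428312: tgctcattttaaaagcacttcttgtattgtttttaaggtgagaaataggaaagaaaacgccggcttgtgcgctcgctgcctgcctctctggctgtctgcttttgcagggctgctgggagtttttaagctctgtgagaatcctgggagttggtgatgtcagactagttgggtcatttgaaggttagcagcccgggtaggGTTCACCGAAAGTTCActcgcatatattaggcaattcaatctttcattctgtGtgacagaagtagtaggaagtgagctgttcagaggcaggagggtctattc
Windows were found for 41 of the 46 listed genes, 100 windows in all. The core receptor motif AGGTCA, searched on both strands, occurred in 14 of these 100 windows and in 13.8% of all 35116 windows of the table. Windows of the same gene can overlap. Counted by gene, 9 of the 41 genes (22.0%) had the core motif in any window, against 16.5% of all 27305 genes. None of the windows printed here contains it. The RARB window holds the direct repeat of GTTCA with 6 bases between its copies, its match starting 52 bases before the transcription start, and 20 of the 35116 windows (0.0570%) hold that motif on either strand. Direct repeats of AGGTCA with 1 or 4 bases between the copies, each of which contains the core motif, and the palindrome AGAACA, 3 bases, TGTTCT of steroid receptors had no match in the members' windows and had 8, 7 and 1 among all windows, both strands searched. These are matches of letters in a short window, and the RPKM values do not tell from which start a transcript came.

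AC16 cells carried a broad but selective set of receptor transcripts. A mean of at least 10 RPKM over all libraries was reached by 17 members, 14 lay between 1 and 10 RPKM, 8 between 0.1 and 1 RPKM and 6 under 0.1 RPKM. The highest receptor levels were those of NR2F2 (COUP-TFII), NR1H2 (LXR beta) and PPARD in every library, and the 5 most abundant receptors held 49.7% of the summed receptor RPKM. In the controls NR2F2 came first, at 67.2 ± 3.94 RPKM (SD, n = 3) against 47.9 ± 5.5 RPKM for NR1H2, with no overlap. After PA the levels of NR2F2 (48.4 ± 3.85 RPKM) and NR1H2 (48.7 ± 3.28 RPKM) did not differ beyond their spread. Within most families 1 paralog dominated. The orphan receptor ESRRA, a partner of PGC-1, held 98.8% to 99.8% of the ERR sum per library, and NR3C1, the glucocorticoid receptor, 92.0% to 95.8% of the sum with NR3C2 and PGR.

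**Figure D1:**
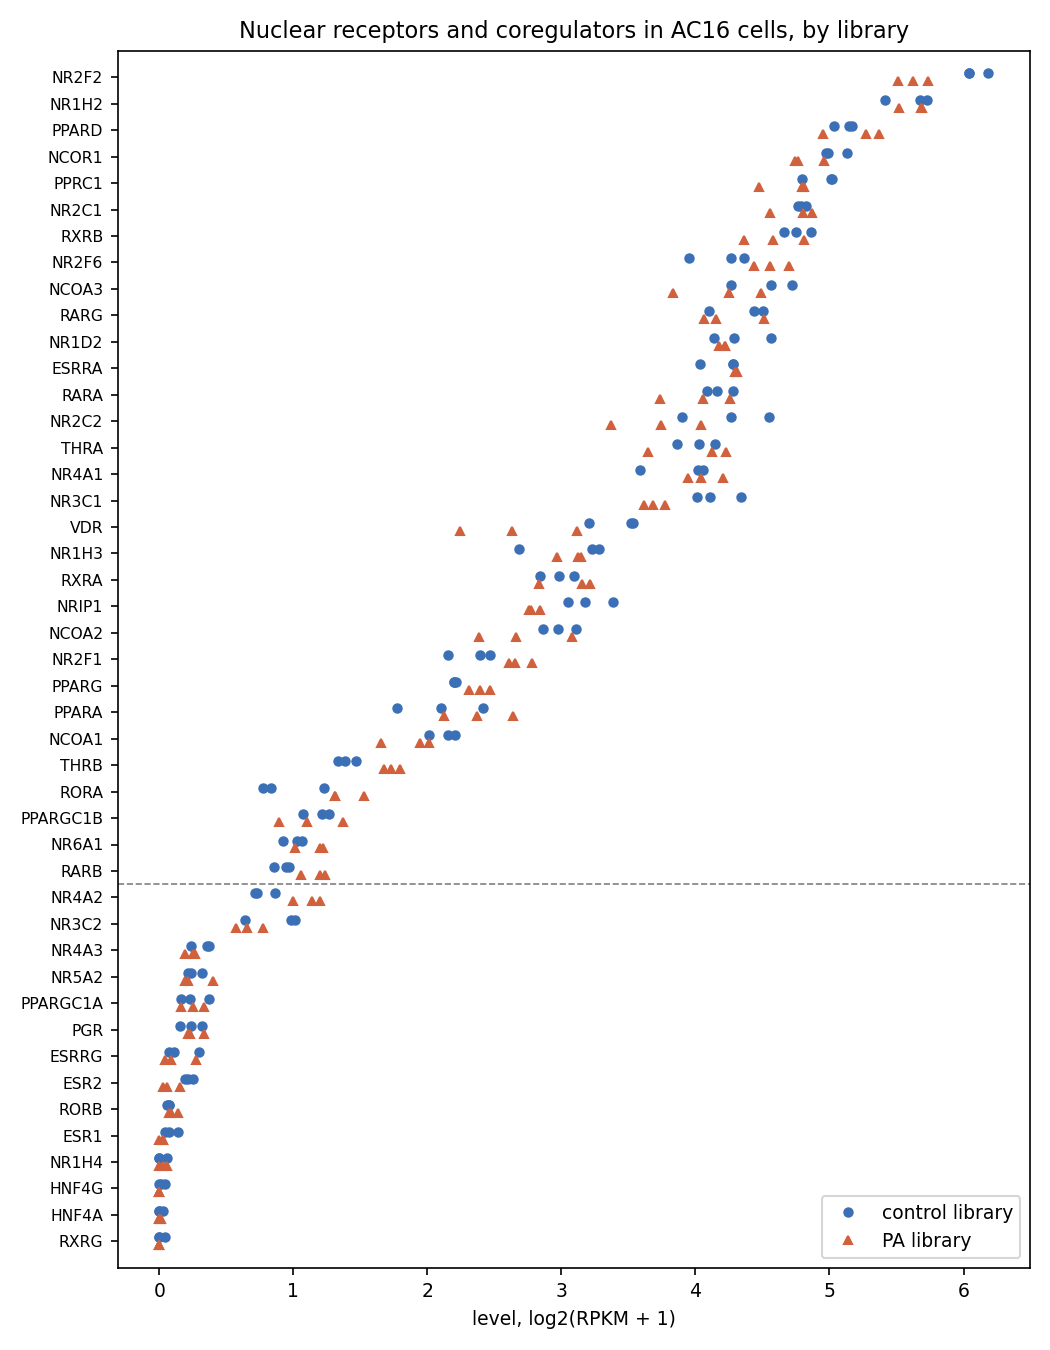
Level of each of the 45 members in the 3 control (circles) and 3 PA (triangles) libraries, as log2(RPKM + 1), ordered by mean level. NR2F2 tops the list, and the 14 members below the dashed line average under 1 RPKM and were not tested.

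A test was possible for 31 members, 24 receptors and 7 coregulators, which had a mean of at least 1 RPKM. With limma on log2(RPKM + 1), 1 of the 31 passed an adjusted p of 0.05 over all 14159 genes tested, NR2F2, which fell, and 0 rose. That is 3.23% of the members, against 4.81% of all genes tested (2.84% higher and 1.97% lower in PA), a share near the background. An unadjusted p under 0.05 was reached by 9 of the 31 (29.03%), 4 higher and 5 lower in PA, against 25.9% of all tested genes. The PA values lay wholly on one side of the controls in 12 members (38.7%), against 32.6% of all genes tested. Of these, 7 were higher in PA (RORA, NR2F6, NR2F1, THRB, RARB, PPARG and ESRRA) and 5 were lower (VDR, NR2F2, NR3C1, NRIP1 and NCOR1), against 16.7% and 15.9% of all genes in the respective direction. Differences ran from -0.75 to 0.44 on the log2(RPKM + 1) scale, a scale that understates the change of low genes. All log2 fold changes given for single genes are differences on this scale. The median was -0.05 over the members and -0.02 over all tested genes, and the former was 0.05 without PA 3. A member that did not pass is not shown to be unchanged, and intervals are given where the size matters. Listed genes on the opposite strand share exons with 14 of the 31 tested members, among them NCOR1 (PIGL), NCOA3 (SULF2), ESRRA (TRMT112), NR1H3 (ACP2) and VDR (AC121338.1), whose reads may be mixed if strand was not used in counting.

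**Figure D2:**
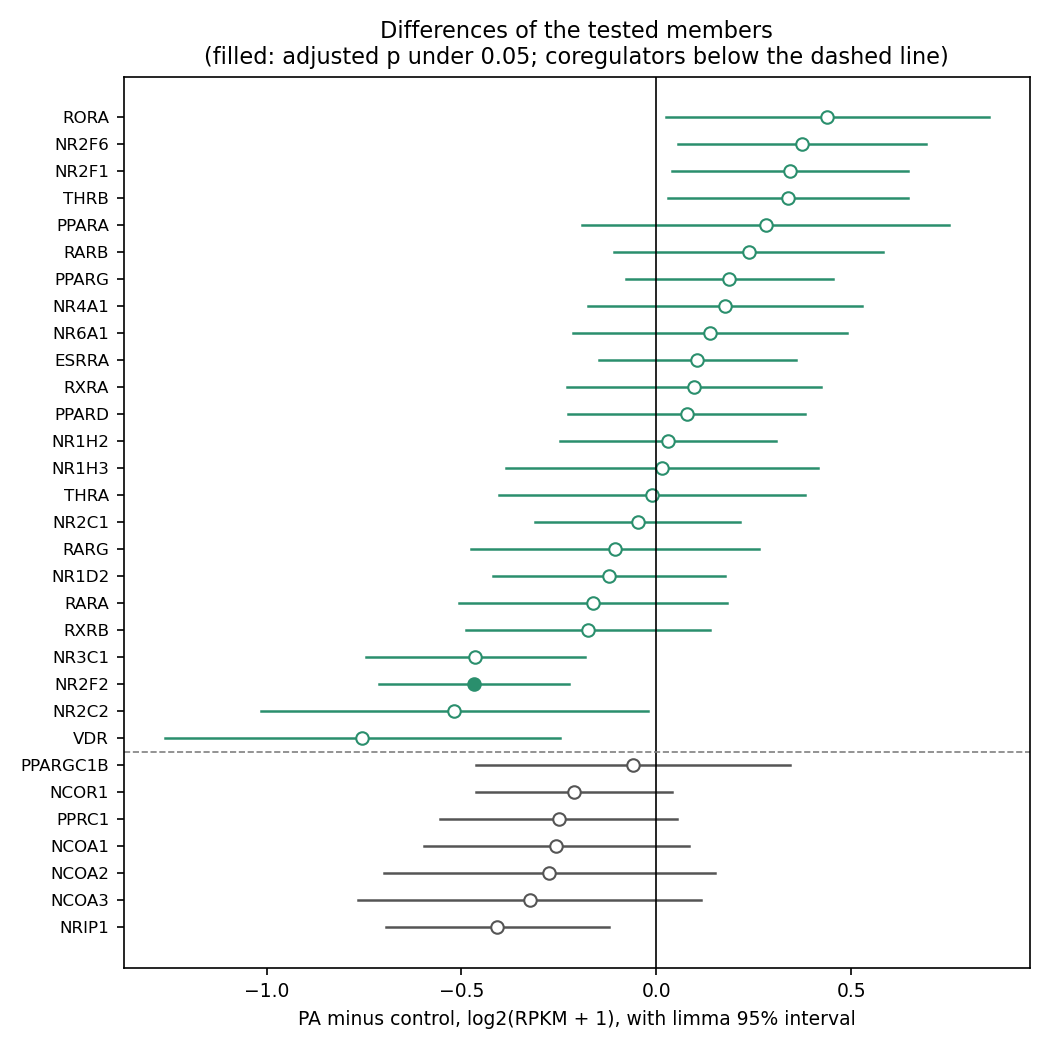
Difference of PA from control for the 31 tested members on the log2(RPKM + 1) scale, with the limma 95% interval. Receptors stand above the dashed line and coregulators below it; NR2F2, at -0.47, is the only filled point, and all 7 coregulators lie left of 0.

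The COUP-TFs are orphan receptors that bind direct repeats of the core motif and often oppose other receptors at the same sites. NR2F2, known for its role in venous and atrial identity, measured 64.97, 71.75 and 64.87 RPKM in control 1, 2 and 3 and 44.67, 48.16 and 52.36 RPKM in PA 1, 2 and 3. All PA libraries were below all controls. Its log2 fold change was -0.47 ± 0.11 (SE), with a 95% interval from -0.71 to -0.22 and a limma adjusted p of 0.0492. In bulk RNA, fewer cells of a type and less RNA per cell cannot be told apart. With 1 library left out, the limma adjusted p stayed below 0.05 when that library was PA 3 (0.0484) and lay between 0.0920 (PA 1 left out) and 0.176 (PA 2 left out) for each of the other 5, including control 1 (0.168), control 2 (0.110) and control 3 (0.109), with the log2 fold change between -0.52 and -0.41 in these 6 fits. It was also above 0.05 without a filter on low values (0.0855) and without the variance trend (0.0631).

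The other 2 COUP-TF genes had values in the opposite direction and did not pass. NR2F6 (EAR2) stood at 18.20, 19.56 and 14.50 RPKM in control 1, 2 and 3 and at 20.70, 22.58 and 24.99 RPKM in PA 1, 2 and 3, a log2 fold change of 0.37 ± 0.14 (limma adjusted p = 0.142). The groups did not overlap, the exons overlap AC010646.1 on the same strand, and the transcripts have a GC content of 71.0%. With the length and GC trends taken out its value was 0.10 (limma adjusted p = 0.421). NR2F1 (COUP-TFI) was at 4.24, 4.53 and 3.46 RPKM in control 1, 2 and 3 and at 5.87, 5.29 and 5.11 RPKM in PA 1, 2 and 3, a log2 fold change of 0.34 ± 0.13 (limma adjusted p = 0.151). Its exons overlap NR2F1-AS1 on the opposite strand, and the sources used here do not say whether counting used strand. As shares of the summed COUP-TF RPKM, which do not depend on library scaling, NR2F2 made up 74.3%, 74.9% and 78.3% in control 1, 2 and 3 and 62.7%, 63.3% and 63.5% in PA 1, 2 and 3. The share of NR2F6 was 19.6% ± 1.81 in control and 29.7% ± 0.625 in PA (SD, n = 3), and that of NR2F1 was 4.58% ± 0.358 and 7.13% ± 1.03. The groups did not overlap in any of these shares, and no exact permutation test is given since 3 libraries against 3 allow no p under 0.1. Such a separation was not particular to the COUP-TFs. Among the 11 groups of related members with at least 2 tested genes, 5 had a share that did not overlap. The others were RXR, RAR, ROR with REV-ERB, and the corepressors NCOR1 and NRIP1. Shares of a group are parts of the same sum, so they are not independent. How often shares separate in other gene families was not measured.

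**Figure D3:**
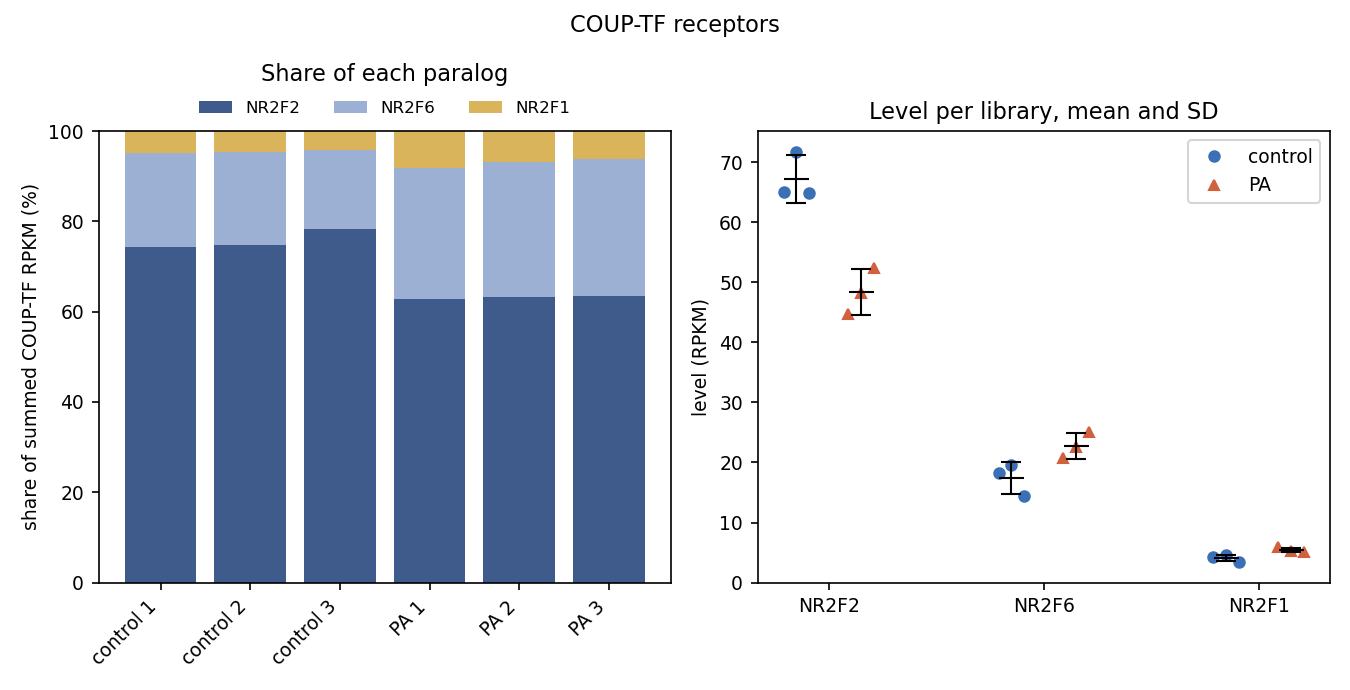
Left, share of NR2F2, NR2F6 and NR2F1 in the summed COUP-TF RPKM of each library, in percent; right, RPKM per library with mean and SD (n = 3 per group). The NR2F2 share is 74.3% to 78.3% in control and 62.7% to 63.5% in PA.

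Among the steroid and vitamin receptors, 2 had lower values in every PA library without passing the test. NR3C1, the glucocorticoid receptor, measured 16.29, 15.11 and 19.27 RPKM in control 1, 2 and 3 and 12.65, 11.86 and 11.23 RPKM in PA 1, 2 and 3. Its groups did not overlap, and the log2 fold change was -0.47 ± 0.12 (limma adjusted p = 0.0662). VDR, the vitamin D receptor, was at 10.47, 8.21 and 10.59 RPKM in control 1, 2 and 3 and at 7.67, 5.21 and 3.74 RPKM in PA 1, 2 and 3, which again did not overlap. It had the lowest value of all tested members, at -0.75 ± 0.22 on the log2 scale (limma adjusted p = 0.0853). With the length and GC trends taken out, a fit in which 14.0% of all genes passed, NR3C1 (-0.34, limma adjusted p = 0.0311), VDR (-0.69, limma adjusted p = 0.0281) and NR2F2 (-0.44, limma adjusted p = 0.0389) passed. The mineralocorticoid receptor NR3C2 averaged 0.853 RPKM (control) and 0.590 RPKM (PA), and the progesterone receptor PGR 0.180 and 0.197 RPKM, both under the level for testing. Of the oestrogen receptors, ESR2 was listed at 0.19, 0.14 and 0.16 RPKM in control 1, 2 and 3 and at 0.04, 0.02 and 0.11 RPKM in PA 1, 2 and 3, and ESR1 did not exceed 0.10 RPKM in any library.

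**Figure D4:**
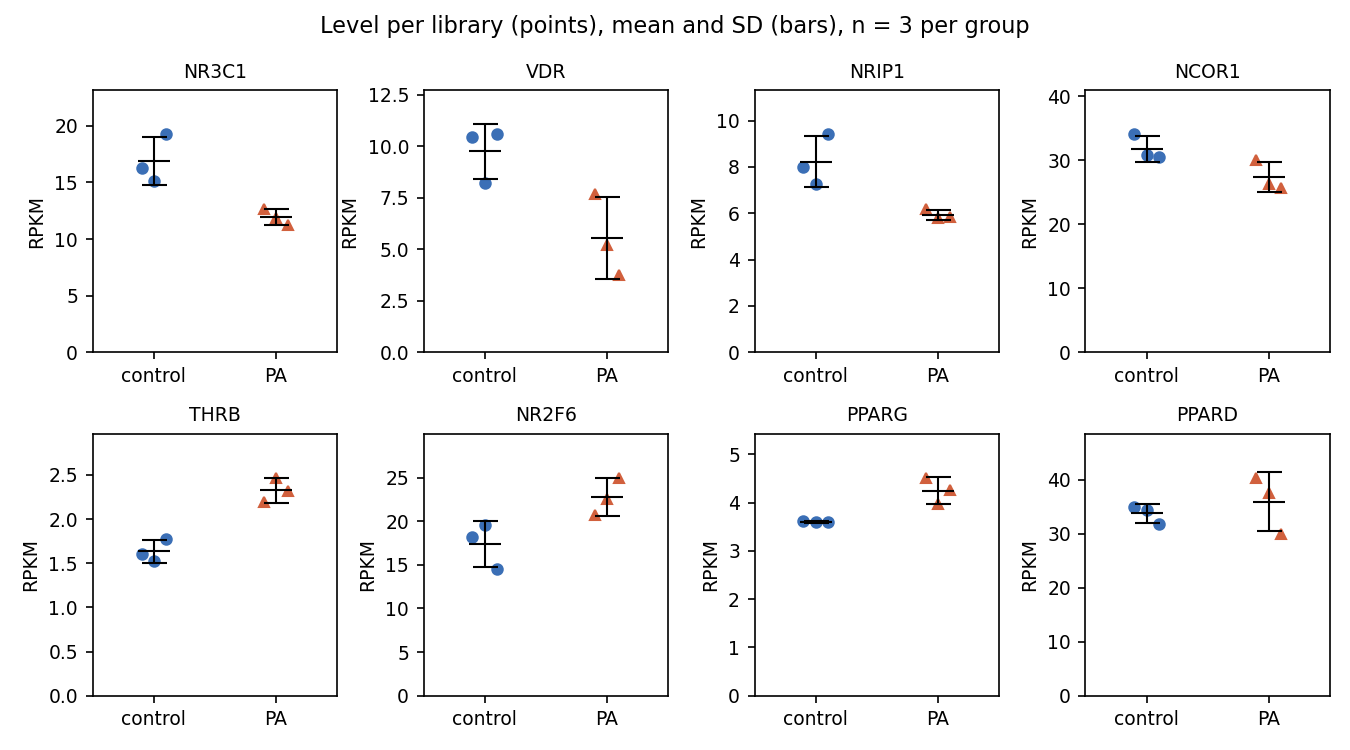
RPKM of 8 members in each library (points), with mean and SD (bars, n = 3 per group). NR3C1, VDR, NRIP1 and NCOR1 are lower in every PA library, THRB, NR2F6 and PPARG are higher, and PPARD overlaps.

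PPARs, the receptors that bind fatty acids, did not pass the test in any of their 3 forms. PPARD, the widely expressed form, accounted for 79.7% to 85.1% of the PPAR sum per library. It measured 35.03, 34.46 and 31.83 RPKM in control 1, 2 and 3 and 40.40, 37.55 and 29.88 RPKM in PA 1, 2 and 3. The groups overlapped, with a log2 fold change of 0.08 and a 95% interval from -0.23 to 0.38; the value was -0.03 when libraries were scaled to one sum and -0.01 without PA 1. PPARA, the form best known in heart and liver, was low, at 4.34, 2.42 and 3.30 RPKM in control 1, 2 and 3 and 5.24, 4.18 and 3.35 RPKM in PA 1, 2 and 3, a log2 fold change of 0.28 with an interval from -0.19 to 0.75. PPARG, the adipocyte form, was nearly constant in the controls at 3.63, 3.59 and 3.60 RPKM and stood at 4.52, 3.97 and 4.26 RPKM in PA 1, 2 and 3. Its groups did not overlap, and the log2 fold change was 0.19, with an interval from -0.08 to 0.45 (limma adjusted p = 0.339).

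RXRB supplied 73.5% to 80.3% of the RXR sum, with RXRA second and RXRG listed at 0 in 5 of 6 libraries. The RXRB share was 77.4%, 80.3% and 79.8% in control 1, 2 and 3 and 77.3%, 73.5% and 76.2% in PA 1, 2 and 3, separate by a narrow gap. RXRB measured 25.88, 28.07 and 24.33 RPKM in control 1, 2 and 3 and 27.00, 22.84 and 19.60 RPKM in PA 1, 2 and 3, a log2 fold change of -0.18 with an interval from -0.49 to 0.14. RXRA stood at 7.53, 6.88 and 6.15 RPKM in control 1, 2 and 3 and 7.92, 8.25 and 6.12 RPKM in PA 1, 2 and 3, its log2 fold change being 0.10 with an interval from -0.23 to 0.42, or -0.11 with the length and GC trends taken out. The RPKM of both RXR transcripts overlapped between groups, and neither passed (limma adjusted p = 0.442 and 0.698). The exons of RXRB overlap SLC39A7 on the opposite strand.

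Retinoic acid receptors were divided between RARG (48.9% to 55.1% of the RAR sum) and RARA (41.9% to 48.3%), which overlapped between groups with log2 fold changes of -0.11 and -0.16. RARB, which retinoic acid is known to induce through the element printed above, was a minor form at 0.81, 0.93 and 0.96 RPKM in control 1, 2 and 3 and 1.35, 1.08 and 1.29 RPKM in PA 1, 2 and 3. All PA values exceeded the controls (0.24 on the log2(RPKM + 1) scale, limma adjusted p = 0.352), and its exons overlap those of TOP2B on the opposite strand. Its share of the RAR sum was 2.42% ± 0.429 in control and 3.63% ± 0.663 in PA (SD, n = 3).

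Of the thyroid hormone receptors, THRA held 83.2% to 91.2% of the sum. It overlapped between groups, with means of 15.2 ± 1.58 RPKM (control) and 15.2 ± 3.31 RPKM (PA), and shares exon sequence with NR1D1 (REV-ERB alpha) on the opposite strand. NR1D1 itself was at 11.2 ± 1.54 and 14.4 ± 2.45 RPKM (limma adjusted p = 0.232). THRB was low, at 1.61, 1.52 and 1.77 RPKM in control 1, 2 and 3 and 2.19, 2.47 and 2.32 RPKM in PA 1, 2 and 3. Its groups did not overlap (0.34 ± 0.13 on the log2(RPKM + 1) scale, limma adjusted p = 0.160).

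The clock receptors NR1D2 (REV-ERB beta, a repressor) and RORA (an activator at the same elements) also did not pass. NR1D2 averaged 19.3 ± 3.11 RPKM under vehicle and 17.5 ± 0.326 RPKM under PA, a difference of -0.12 on the log2 scale, or 0.07 with the length and GC trends taken out. RORA measured 0.71, 1.34 and 0.78 RPKM in control 1, 2 and 3 and 1.88, 1.48 and 1.48 RPKM in PA 1, 2 and 3. Its difference on the log2(RPKM + 1) scale, 0.44 ± 0.18, was the highest of the tested members (limma adjusted p = 0.172). Control 2 lay close below the PA libraries. The oxysterol receptors NR1H2 and NR1H3 (LXR alpha) had log2 fold changes of 0.03 and 0.01, with intervals from -0.25 to 0.31 and from -0.39 to 0.41, and their signs turned in several alternative fits.

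The testicular orphan receptors NR2C1 and NR2C2 differed in their values. NR2C2 was at 22.45, 13.91 and 18.21 RPKM in control 1, 2 and 3 and at 15.48, 12.42 and 9.34 RPKM in PA 1, 2 and 3, which overlapped, with a log2 fold change of -0.52 ± 0.21 (limma adjusted p = 0.177) and exons shared with MRPS25 and FGD5-AS1 on the opposite strand. NR2C1 averaged 26.7 ± 0.577 and 25.9 ± 2.97 RPKM (log2 fold change -0.05). ESRRA measured 18.39, 18.46 and 15.40 RPKM in control 1, 2 and 3 and 18.88, 18.74 and 18.60 RPKM in PA 1, 2 and 3. These groups did not overlap by a margin of 0.14 RPKM, and the log2 fold change was 0.10 (limma adjusted p = 0.578), or -0.04 with the length and GC trends taken out.

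The NR4A receptors are immediate early genes that act without a ligand. NR4A1, which made up 91.7% to 94.4% of their sum, averaged 13.95 ± 2.53 RPKM without and 15.8 ± 1.575 RPKM with PA (log2 fold change 0.18, limma adjusted p = 0.494). NR4A2 had a mean of 0.937 RPKM, just under the level for testing, and was listed at 0.64, 0.82 and 0.66 RPKM in control 1, 2 and 3 and at 1.3, 1.2 and 1 RPKM in PA 1, 2 and 3. NR6A1, a germ cell orphan receptor, was at 1.01 ± 0.0985 and 1.21 ± 0.169 RPKM (limma adjusted p = 0.601).

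All 7 tested coregulators had negative values, although 0 passed the limma threshold and 1 of them, NRIP1, had an unadjusted p under 0.05. Their median log2 fold change was -0.26, compared with -0.02 over all genes tested, and it was -0.17 with the length and GC trends taken out, -0.15 without PA 3 and -0.35 when libraries were scaled to one sum. The median over all genes tested was -0.0028, 0.0027 and -0.11 in these 3 fits. In 6 of the 7, PA 3 was the lowest library, as it was in 15 of the 31 tested members (48.4%) and in 29.8% of all genes tested. Without PA 3, 6 of the 7 values were negative, PPARGC1B being the exception at 0.05; the part of PA 3 in these values was not tested.

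NRIP1 (RIP140), which represses oxidative metabolism genes, had the lowest value of the group. It measured 8.02, 7.27 and 9.42 RPKM in control 1, 2 and 3 and 6.17, 5.78 and 5.85 RPKM in PA 1, 2 and 3. The groups did not overlap (log2 fold change -0.41 ± 0.12, limma adjusted p = 0.0934). Its exons overlap AF127577.1 and AF127577.4, and its transcripts are long, at a median of 7556 nt with 38.8% GC, and with the length and GC trends taken out the value was -0.19 (limma adjusted p = 0.147). NCOR1, the scaffold that brings histone deacetylase to unliganded receptors, was at 34.06, 30.76 and 30.48 RPKM in control 1, 2 and 3 and at 30.05, 26.25 and 25.72 RPKM in PA 1, 2 and 3, separate by a small gap (log2 fold change -0.21 ± 0.11, limma adjusted p = 0.261).

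The p160 coactivators, which bring histone acetyltransferases to liganded receptors, had shares that overlapped between the groups. NCOA3 held 66.1% to 70.7% of their sum, NCOA2 19.2% to 23.3% and NCOA1 9.51% to 11.02%. Their log2 fold changes were -0.33, -0.27 and -0.26, with limma adjusted p-values of 0.315, 0.379 and 0.308, and the groups overlapped in each. With the length and GC trends taken out the values of NCOA3 and NCOA1 were -0.13 and -0.06.

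PGC-1 coactivators, which raise mitochondrial gene expression together with ERR and PPAR, were represented almost wholly by PPRC1. This growth-responsive relative held 93.9% to 95.6% of the sum, at 31.32, 31.48 and 26.69 RPKM in control 1, 2 and 3 and 27.06, 26.75 and 21.20 RPKM in PA 1, 2 and 3. The groups overlapped, and the log2 fold change was -0.25 ± 0.13 (limma adjusted p = 0.271). PPARGC1B measured 1.40, 1.32 and 1.10 RPKM in control 1, 2 and 3 and 1.58, 1.15 and 0.86 RPKM in PA 1, 2 and 3, overlapping, with a log2 value of -0.06 and an interval from -0.46 to 0.34. PPARGC1A, the form prominent in heart and muscle, was listed at 0.17, 0.12 and 0.29 RPKM in control 1, 2 and 3 and at 0.19, 0.26 and 0.12 RPKM in PA 1, 2 and 3, too low for a test.

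Genes that the receptors are known to control were read from lists and set beside the receptors. The lists were chosen with earlier results of these data known, so their counts are not independent evidence on the receptors. Over all genes tested, 4.81% passed the limma threshold and 25.9% had an unadjusted limma p under 0.05. Of 16 tested genes on a list of PPAR targets and fatty acid oxidation, 2 rose and 1 fell, with a median log2 fold change of 0.09, or -0.01 when libraries were scaled to one sum. UCP2, a mitochondrial carrier, rose from 13.64, 14.47 and 12.82 RPKM in control 1, 2 and 3 to 31.34, 30.55 and 23.59 RPKM in PA 1, 2 and 3 (log2 fold change 1.001 ± 0.13, limma adjusted p = 0.0148). TXNIP, which binds thioredoxin, rose from 228 ± 10.4 to 419 ± 9.99 RPKM (limma adjusted p = 0.0073). ANGPTL4, an inhibitor of lipoprotein lipase that fatty acids are known to induce through PPARs, measured 19.33, 23.91 and 18.54 RPKM in control 1, 2 and 3 and 5.07, 5.41 and 4.77 RPKM in PA 1, 2 and 3, and fell by 1.82 ± 0.13 on the log2 scale (limma adjusted p = 0.00444). Leaving out 1 library at a time kept the ANGPTL4 call in 6 of 6 fits, that of TXNIP in 4 and that of UCP2 in 2. ERR and PGC-1 targets, mostly mitochondrial genes, had 0 of 18 past the limma threshold and 4 at an unadjusted p under 0.05, with 9 positive and 9 negative values. TFB1M, a mitochondrial RNA methyltransferase, had a log2 fold change of 0.45 (limma adjusted p = 0.0658) and GABPA, a subunit of the activator NRF2/GABP, of -0.39 (limma adjusted p = 0.115). Among 9 LXR targets PLTP, a phospholipid transfer protein, rose from 26.6 ± 2.88 to 42.6 ± 3.20 RPKM (log2 fold change 0.66, limma adjusted p = 0.0312), while ABCA1, the best known target, was at 0.04.

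Glucocorticoid receptor targets had positive values in 7 of 9 tested members, beside the lower values of NR3C1. Of all 14159 genes tested, 7429 had negative values. Of the 9 targets, 2 passed the limma threshold and 4 had an unadjusted limma p under 0.05. The shares over all genes tested were 4.81% and 25.9%, and this list too was chosen with earlier results known. With libraries scaled to one sum, 3 of the 9 were negative, and likewise 3 under quantile normalization. FKBP5, a chaperone of the receptor and among its most sensitive targets, measured 38.52, 34.95 and 40.21 RPKM in control 1, 2 and 3 and 53.96, 56.01 and 48.77 RPKM in PA 1, 2 and 3, and rose by 0.47 ± 0.11 on the log2 scale (limma adjusted p = 0.0493). ERRFI1, a feedback inhibitor of the EGF receptor, rose by 0.45 ± 0.09 (limma adjusted p = 0.0409). The groups did not overlap for either gene, but both calls were lost in all 6 fits that left out 1 library, with limma adjusted p-values from 0.0507 to 0.191 and from 0.0542 to 0.176. The list median was 0.42, or 0.21 with the length and GC trends taken out and 0.20 without PA 3.

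Receptor chaperones, which hold steroid receptors ready for ligand, had negative values in 7 of 8 members. HSP90AA1 fell from 1534 ± 168.2 to 871 ± 170.2 RPKM and HSPA8 from 1548 ± 55.3 to 1060 ± 82.4 RPKM (limma adjusted p = 0.0341 and 0.0322), each call holding in 1 of 6 fits that left out a library, and FKBP5 was the member that rose. Other coregulators, a list of 30 genes that were all tested, had 25 negative values, against 7429 of all 14159 genes tested, with a median of -0.28. Of these 30 genes 2 passed, both lower, where 4.81% of all genes passed in either direction. NCOA5, a coactivator of oestrogen receptors, fell from 23.69, 24.14 and 25.09 RPKM in control 1, 2 and 3 to 11.58, 10.71 and 6.53 RPKM in PA 1, 2 and 3, the largest change of that list at -1.29 ± 0.19 (limma adjusted p = 0.0207). RBM14, an RNA-binding coactivator, fell by 0.54 ± 0.12 (limma adjusted p = 0.0479), and its exons overlap the readthrough gene RBM14-RBM4. The NCOA5 call held in 2 of 6 fits that left out a library and the RBM14 call in 0, with limma adjusted p-values from 0.0144 to 0.0936 and from 0.0516 to 0.184. PA 3 was the lowest library in 18 of these 30 genes, and the median was -0.19 without it and -0.20 with the length and GC trends taken out.

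In the remaining lists, ALDH1A3, which makes retinoic acid from retinaldehyde, rose from 14.2 ± 1.23 to 26.1 ± 3.26 RPKM (log2 fold change 0.83 ± 0.12, limma adjusted p = 0.0215). It was the 1 of 9 tested genes of ligand supply that passed, where 4.81% of all genes tested passed. Of these 9 genes 5 had positive and 4 negative values, ALDH1A2 being at -0.41 (limma adjusted p = 0.239). The retinoic acid targets had 0 of 5 past the limma threshold and 0 at an unadjusted p under 0.05, with 5 positive values. CD14, a vitamin D target in myeloid cells and also a leukocyte marker, rose from 3.01 ± 0.146 to 5.64 ± 0.573 RPKM (limma adjusted p = 0.0288), beside the lower VDR values; it was 1 of 3 tested targets of that receptor. CXCL12, an oestrogen-responsive chemokine, fell from 13.98 ± 0.426 to 6.08 ± 0.303 RPKM (limma adjusted p = 0.0073), the 1 of 5 tested oestrogen targets that passed, in cells where ESR1 and ESR2 were near 0. REV-ERB and ROR targets had 0 of 6 past the limma threshold and 1 at an unadjusted p under 0.05, with CLOCK at -0.33 and CRY1 at -0.29. With 1 library left out, the CXCL12 call held in 4 of 6 fits, that of ALDH1A3 in 2, that of PLTP in 1 and that of CD14 in 1. Of 10 further receptors, NR1D1 reached the level for testing and the other 9 averaged under 1 RPKM. Exons of PLTP (CTSA), HSP90AA1 (WDR20), GABPA (ATP5PF) and CLOCK (TMEM165) overlap the gene in brackets on the opposite strand.

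**Figure D5:**
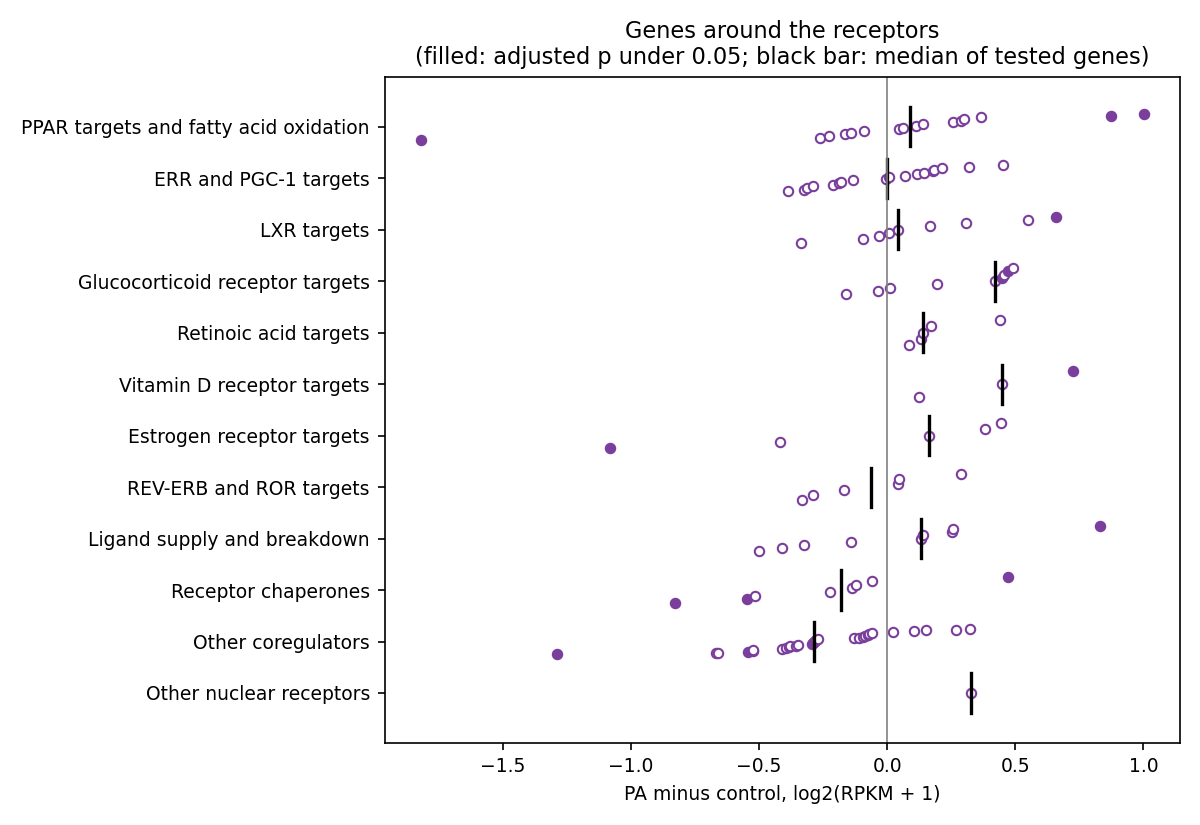
Difference of PA from control on the log2(RPKM + 1) scale for each tested gene of 12 lists of receptor targets, ligand enzymes, chaperones and cofactors; filled points passed an adjusted p of 0.05 and black bars are medians. The medians run from -0.28 for other coregulators to 0.45 for vitamin D receptor targets, of which 3 genes were tested.

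The 14 members under the level for testing were read by their listed values only. NR1H4 (FXR), HNF4A, HNF4G, ESR1, RXRG and RORB averaged under 0.1 RPKM, and 5 of the 14 were listed at 0 in some library, which in such tables can also be a failed estimate. The liver receptor NR5A2 and the orphan receptor NR4A3 averaged 0.202 and 0.213 RPKM, and ESRRG, the ERR form of oxidative muscle, 0.110 RPKM.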

How the data were processed

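Total RNA of 6 AC16 libraries, 3 per group, was sequenced. RPKM values were deposited by the authors, with no counts, so depth is unknown and no counting interval is given. Per the submitters' processing notes, the build was hg19, and HISAT2, fastp, FastQC, RSEM and StringTie appear by name, with neither role nor version. Rows were matched by gene name; members and lists were chosen with earlier results of these data known. PA was compared with control in limma 3.58.1 under R 4.3.3 (eBayes with trend, two-sided, Benjamini-Hochberg) on log2(RPKM + 1), without covariates. The fit covered the 14159 rows that averaged at least 1 RPKM. It was checked on simulated data with 200 genes changed per run. Of changes of 0.5 in log2 RPKM 8.06% were recovered, of 1 57.0% and of 2 89.7%, and 5.34% of calls were false. In the simulation, changes of 0.5 were thus mostly missed. Far more genes passed in the data (681) than were changed per run, and the simulated noise was drawn for each gene separately. The adjusted threshold was therefore stricter in the simulation, and its shares do not carry over to these data. How many changes among the members were missed is not known. Lengths, GC contents and overlaps came from GENCODE 29, whose assembly differs from hg19, so it gave no coordinates. The length and GC trends were taken out with splines of 4 degrees of freedom for 95.2% of tested genes. Promoter windows came from RefSeq. Full values are given for the member past the threshold, the next 6 by absolute difference and the tested PPAR, RXR and PGC-1 members. From each list, up to 4 passing genes are named, or 2 where none passed. Single genes of the retinoic acid target list are not reported here. Other members, ABCA1, ALDH1A2 and the abundant fibroblast markers were named after their values were seen. Alternatives changed the pseudocount, filter, scaling, variance model, replicate block and libraries included.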

Additional observations from a re-analysis of the deposited data

How the results depend on the processing

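NR2F2 was negative in all alternatives run. Members lower numbered 3 with the length and GC trends taken out (1004 genes higher and 889 lower in all) and 0 without a filter on low values (35 and 37) and without the variance trend; members higher stayed at 0. Scaling to one sum gave 207 genes higher and 324 lower, so 39.0% of calls were higher, against 59.0% as deposited. With a replicate block, 42 genes were higher, 56 lower and 0 members lower (NR2F2 limma adjusted p = 0.0733). Block and trend removal together gave 472 and 428, with 1 member lower, VDR (limma adjusted p = 0.0482). The replicate numbers did not pair the libraries: same-numbered deviations correlated at 0.157, -0.0144 and 0.0371, and control 2 correlated best with PA 3. Leaving out 1 library gave 4 to 181 genes higher, 6 to 183 lower and 0 to 1 member lower. Signs turned for 9 members. With the trends taken out, with or without the block, these were ESRRA (-0.041), NR1D2 (0.073), NR1H2 (-0.11), NR1H3 (-0.089), NR2C1 (0.0080) and RXRA (-0.11). Under one sum, which moved the median of all genes tested from -0.02 to -0.11, they were NR1H2 (-0.076), NR1H3 (-0.080) and PPARD (-0.027), all nearer to 0 than that median, and under quantile normalization THRA (0.052). Ranges with 1 library left out crossed 0 for NR1H2 (-0.067 to 0.091), NR1H3 (-0.18 to 0.12), NR2C1 (-0.11 to 0.045), PPARD (-0.010 to 0.20), PPARGC1B (-0.18 to 0.053) and THRA (-0.13 to 0.17). Apart from that shift the cause was not tested. The unknown depth limits what can be said of low members.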
